A study of Rattus norvegicus with 16 samples.

Results

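Chemokines are small secreted proteins that guide the movement of leukocytes, and chemokine receptors are the G protein-coupled receptors on the cells that respond to them. The genes described are the 50 rows of the deposited table whose symbols begin with Ccl, Ccr, Cxcl, Cxcr, Cx3cl or Cx3cr followed by a digit. They comprise 33 ligands and 17 receptors among 17147 genes. Change is described for the 26 with a mean of at least 10 fragments over the libraries, which are 17 ligands and 9 receptors, and the other 24 are accounted for near the end.

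RNA was taken from the supraspinatus, a rotator cuff muscle, of Sprague Dawley rats, in 4 groups of 4 libraries. The 0-day group came from unoperated controls, and the 10-, 30- and 60-day groups were named for the days since injury. Injury was a full-thickness tear of the supraspinatus plus a suprascapular neurectomy, which removes nerve tissue supplying the muscle, done bilaterally. Tear and neurectomy were always combined, so their effects cannot be told apart. The labels give no age or sex and do not say whether any libraries share a rat, so the p-values below measure only the spread between these libraries. Each library title holds its own number and a letter, L or R, whose meanings are not given.

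Chemokines bind glycosaminoglycans on cells and matrix, and leukocytes that carry the matching receptor move up the resulting gradient. Most receptors signal through Gi proteins, whereas atypical receptors such as Cxcr7 (Ackr3) take up ligand and lower its local level. In injured muscle, CC chemokines such as Ccl2 are known for drawing monocytes, which become macrophages that clear damaged fibres, and CXC chemokines such as Cxcl9 and Cxcl10 for drawing T cells.

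Cxcl9, Cxcl10 and Cxcl11 all bind Cxcr3, are known as interferon-induced, and lie next to each other on chromosome 14. Their upstream sequences are shown because Cxcl9 and Cxcl10 were higher than at 0 days at every operated time, while Cxcl11 was called at none. Each line gives the 250 bases before the RefSeq gene start on the plus strand of GRCr8, written 5′ to 3′. Cxcl9 is chr14:16006916-16007165, Cxcl10 is chr14:15988816-15989065 and Cxcl11 is chr14:15973478-15973727. Capitals mark matches to the NF-kB consensus, to the ISRE core GAAANNGAAA bound by interferon-activated factors, or to the GAS motif TTCNNNGAA known from interferon-induced genes.
Cxcl9: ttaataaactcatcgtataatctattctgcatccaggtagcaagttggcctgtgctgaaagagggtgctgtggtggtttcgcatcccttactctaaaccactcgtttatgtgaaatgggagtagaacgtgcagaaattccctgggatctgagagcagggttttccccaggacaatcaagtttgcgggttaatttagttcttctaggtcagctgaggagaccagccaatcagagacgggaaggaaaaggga
Cxcl10: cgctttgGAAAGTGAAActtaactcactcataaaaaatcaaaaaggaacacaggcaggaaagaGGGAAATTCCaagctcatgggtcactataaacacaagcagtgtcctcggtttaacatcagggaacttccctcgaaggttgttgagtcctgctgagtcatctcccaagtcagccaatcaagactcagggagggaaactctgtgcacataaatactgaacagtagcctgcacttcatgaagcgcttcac
Cxcl11: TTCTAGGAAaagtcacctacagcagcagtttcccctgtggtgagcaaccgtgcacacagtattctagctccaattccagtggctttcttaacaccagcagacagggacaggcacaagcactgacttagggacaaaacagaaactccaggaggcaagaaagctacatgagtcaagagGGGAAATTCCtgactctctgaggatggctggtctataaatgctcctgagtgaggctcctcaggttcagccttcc
In Cxcl10 the ISRE core begins 243 bases before the start and the NF-kB match 187 bases before it. In Cxcl11 the GAS match begins 250 bases before the start and the NF-kB match 74 bases before it, and the NF-kB letters are the same in both genes (GGGAAATTCC). Cxcl9 had no match to these 3 motifs in the window. Both strands were searched, and no match in these windows overlapped another. Among 27457 RefSeq promoters of this length, 3.52% held the NF-kB consensus, 3.29% the ISRE core and 7.52% GAS. Of the 26 described genes 19 had a promoter in the table, and the other matches were the NF-kB consensus in Ccl9 and GAS in Ccl24. A match describes letters in a window and shows no binding.

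Levels are CPM, a gene's fragments scaled to library size with TMM factors, and are not divided by gene length, so levels of different genes are not compared. Library totals ran from 17.2 to 39.9 M fragments, and the smallest level the depth can show (3 fragments) was 0.0752 to 0.175 CPM before TMM factors, for counting error alone. The factors raise it at 0 days, where 3 fragments of Ccr7 in replicate 3 gave 0.134 CPM in place of 0.1. The 60-day totals (17.2 to 22.4 M) lay below all others, so raw depth and 60 days cannot be told apart. After TMM factors, 1 fragment of Ccr9 was 0.0562 CPM in replicate 1 at 0 days. It was 0.0561 and 0.0584 CPM in replicates 2 and 3 at 60 days. Summed muscle fibre markers identified the tissue, with 225000 to 248000 CPM in the 0-day group and 65500 to 71100, 106000 to 149000 and 130000 to 154000 in the operated groups in order of time. With library totals in place of TMM factors, the median log2 fold change of all tested genes moved by 0.66, 0.49 and 0.41 at 10, 30 and 60 days against 0 days. Fold changes thus compare a gene with the typical gene of the library.

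Several libraries stood apart for these genes or for the markers. Replicate 4 at 60 days was the highest of its group for 19 of the 26 genes, and its summed macrophage and monocyte markers were 313 CPM, against 180 to 213 in the other 3. Replicate 1 at 30 days had the lowest muscle fibre sum of its group (106000 CPM), and its summed B-cell markers, mostly Blnk, were 20.2 CPM, against 3.74 to 4.64 in the other 3. Without replicate 4 at 60 days, the counts of called genes given next became 21 at 10 days, 21 at 30 days and 16 at 60 days against 0 days. Without replicate 1 at 30 days they were 21, 21 and 19. Replicate 1 at 0 days was the lowest of its group for 14 of the 26 genes, with summed macrophage and monocyte markers of 49.7 CPM against 71.9 to 81.1, and without it the counts were 19, 21 and 16. Replicate 3 at 0 days was the highest of its group for 12 genes, and without it they were 19, 21 and 20. Replicate 2 at 10 days was the lowest for 13, and without it they were 19, 21 and 19.

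Compared with unoperated muscle, most of the described genes were higher at every operated time. At 10 days 21 of 26 were called (edgeR adjusted p under 0.05), 18 higher and 3 lower, against 62.7% of all 11658 genes tested, 33.3% higher and 29.4% lower. At 30 days 21 were called, 19 higher and 2 lower, against 64.6% of all tested, 33.7% and 30.9%. At 60 days 19 were called, 18 higher and 1 lower, against 59.0%, 29.9% and 29.1%. The median log2 fold change of the 26 was 1.21, 1.66 and 1.27 at the 3 times, and that of all tested genes was 0.06, 0.05 and 0.04. Those comparisons share the 0-day libraries. Summed macrophage and monocyte markers were 49.7 to 81.1 CPM at 0 days and 147 to 313 over the operated libraries, and their part in these counts was not tested. In bulk muscle, fewer or more cells of a type and less or more RNA per cell cannot be told apart.

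Receptors and ligands were both mostly higher at 10 days, when 7 of 9 receptors were higher and 2 lower, and 11 of 17 ligands were higher and 1 lower. At 60 days 4 receptors were higher and none lower, whereas 14 ligands were higher and 1 lower. The median log2 fold change at 10 days was 3.07 for receptors and 0.76 for ligands, and at 60 days 1.72 and 1.26. The difference between ligands and receptors was not tested. The libraries of 10 and 0 days did not overlap for 17 of the 26, those of 30 and 0 days for 22 and those of 60 and 0 days for 15, against 59.0%, 60.2% and 50.0% of all tested genes. A gene with few fragments at 0 days enters the 26 only through the times at which it is high, so these counts describe the list and lend it no support.

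**Figure D1:**
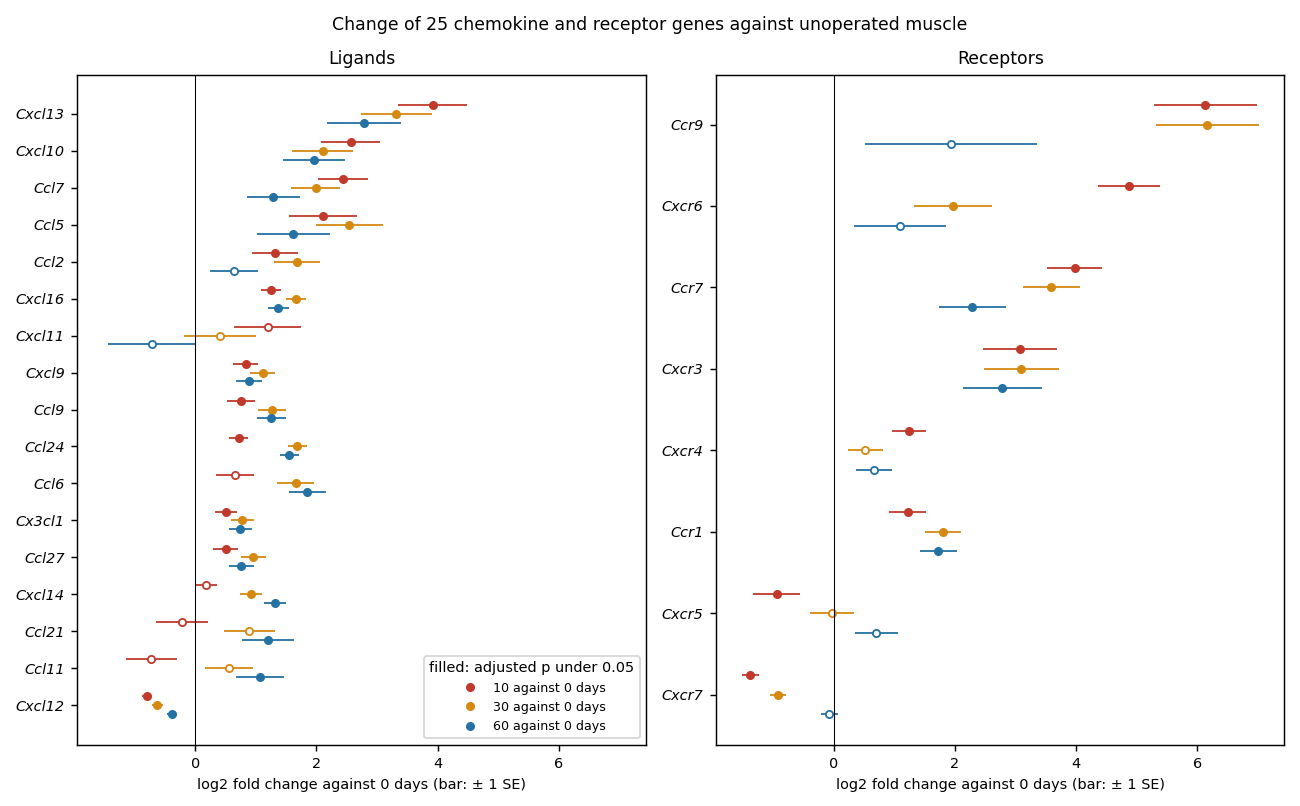
Log2 fold change (edgeR, TMM-scaled) of 25 of the described chemokine and receptor genes at 10, 30 and 60 days against 0 days, with bars of 1 standard error and filled points for adjusted p under 0.05. Most points lie above 0, with Ccr9 furthest at 10 and 30 days (6.13 and 6.16), and Cxcl12 lies below 0 at all 3 times, a direction that flips at 60 days with library totals (0.04).

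Among ligands that draw monocytes, Ccl2 and Ccl7 rose early. Ccl7 stood at 0.337, 0.807, 1.12 and 0.479 CPM at 0 days, 3.16, 2.46, 5.04 and 4.64 at 10 days, 1.98, 3.30, 3.08 and 2.77 at 30 days, and 0.784, 0.953, 2.57 and 2.58 at 60 days. Every 10- and 30-day library lay above every 0-day library, while at 60 days 2 of 4 lay within the 0-day range. Its log2 fold change was 2.44 ± 0.41 (adjusted p 6.77e-05) at 10 days, 1.99 ± 0.41 (adjusted p 0.000528) at 30 days and 1.29 ± 0.43 (adjusted p 0.018) at 60 days in edgeR. It was lower at 60 than at 10 days, with a log2 difference of -1.15 ± 0.37 (adjusted p 0.0129), though those groups overlapped. The 60-day call was lost without replicate 3 (1.05) or replicate 4 (1.02) of that time.

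Ccl2 measured 0.787, 1.06, 2.27 and 0.718 CPM at 0 days, 2.90, 1.87, 4.02 and 3.44 at 10 days, 3.47, 5.63, 2.96 and 3.54 at 30 days, and 1.01, 1.51, 2.81 and 2.36 at 60 days. Replicate 3 at 0 days (2.27) exceeded the lowest 10-day library, and the 30-day libraries lay above all 0-day ones. Against 0 days its log2 fold change was 1.32 ± 0.37 (adjusted p 0.00572) at 10 days, 1.68 ± 0.37 (adjusted p 0.000918) at 30 days and 0.64 ± 0.40 (adjusted p 0.173) at 60 days in edgeR, the last not called. Without replicate 3 at 0 days the 60-day value was 1.15 and was called, as it was with library totals (1.06). The log2 difference between 60 and 30 days was -1.04 ± 0.36 (adjusted p 0.0477). Of 16 fits that each left out 1 library, 11 lost this call, with values of -1.15 to -0.80. It held without replicate 3 or 4 at 0 days, replicate 2 at 10 days, replicate 3 at 30 days or replicate 3 at 60 days.

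Ccl5, which attracts T cells and monocytes through Ccr1 and other receptors, gave 0, 0.220, 0.491 and 0.431 CPM at 0 days, 2.38, 0.624, 1.05 and 1.01 at 10 days, 2.44, 1.12, 1.28 and 2.13 at 30 days, and 0.830, 0.897, 0.468 and 1.38 at 60 days. Its 10- and 30-day libraries all exceeded the 0-day ones, and 1 library at 60 days (0.468) fell within the 0-day range. Its log2 fold change was 2.11 ± 0.56 (adjusted p 0.00379), 2.54 ± 0.56 (adjusted p 0.000823) and 1.62 ± 0.60 (adjusted p 0.0297) at the 3 times in edgeR. The 60-day call was lost without replicate 1 (1.29) or 2 (1.5) at 0 days or replicate 4 at 60 days (1.34).

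Ccl6 and Ccl9 are rodent chemokines that act on myeloid cells through Ccr1, and their levels stayed up at 60 days. Ccl9 stood at 1.41, 1.25, 2.27 and 1.68 CPM at 0 days, 2.87, 2.17, 3.00 and 3.10 at 10 days, 3.40, 4.77, 3.72 and 3.94 at 30 days, and 3.37, 2.80, 3.74 and 5.82 at 60 days. All 30- and 60-day libraries were above all 0-day libraries, and 1 library at 10 days (2.17) was below the highest at 0 days (2.27). Its log2 fold changes were 0.76 ± 0.24 (adjusted p 0.0107), 1.27 ± 0.23 (adjusted p 0.000193) and 1.26 ± 0.24 (adjusted p 0.000301) in edgeR.

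Ccl6 gave 0.506, 1.58, 1.52 and 1.63 CPM at 0 days, 2.35, 2.00, 2.57 and 1.48 at 10 days, 4.85, 4.39, 3.20 and 4.34 at 30 days, and 3.09, 3.93, 5.20 and 6.98 at 60 days. Replicate 1 at 0 days was low, and the 30- and 60-day groups overlapped neither the 0-day nor the 10-day group. At 10 days its log2 fold change of 0.66 ± 0.31 (adjusted p 0.0753) was not called, although it was without replicate 4 at that time (0.79) and with library totals (1.32). It then rose, with log2 1.66 ± 0.30 (adjusted p 0.000163) at 30 days and 1.85 ± 0.31 (adjusted p 8.38e-05) at 60 days against 0 days, and 1.00 ± 0.28 (adjusted p 0.00776) between 30 and 10 days.

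The eotaxins Ccl24 and Ccl11 attract eosinophils through Ccr3, which had a mean of 0.38 fragments. Ccl24 gave 2.30, 3.67, 3.75 and 3.45 CPM at 0 days, 5.69, 5.49, 4.97 and 5.65 at 10 days, 8.86, 10.2, 11.1 and 12.5 at 30 days, and 8.62, 8.52, 9.99 and 11.7 at 60 days. The 0-, 10- and 30-day groups did not overlap each other, and the 60-day libraries lay within or just below the 30-day range. Its log2 fold change was 0.72 ± 0.16 (adjusted p 0.000786), 1.68 ± 0.16 (adjusted p 1.37e-07) and 1.55 ± 0.16 (adjusted p 6.14e-07) against 0 days, and 0.96 ± 0.15 (adjusted p 5.95e-05) between 30 and 10 days, in edgeR. These calls held in all 16 fits that left out 1 library.

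Ccl11 gave 1.35, 1.43, 3.17 and 2.35 CPM at 0 days, 1.68, 0.526, 1.15 and 1.63 at 10 days, 4.99, 3.35, 2.20 and 1.61 at 30 days, and 3.18, 4.26, 3.16 and 6.75 at 60 days. Its 4 groups overlapped except 10 and 60 days, and replicates spread widely at each time. Against 0 days it was called only at 60 days, with log2 1.07 ± 0.40 (adjusted p 0.0313), beside -0.72 and 0.56 at 10 and 30 days. That call was lost without replicate 1 (0.94) or 2 (0.93) at 0 days or replicate 4 at 60 days (0.79). Between 60 and 10 days the log2 difference was 1.79 ± 0.41 (adjusted p 0.00125). Between 30 and 10 days it was 1.28 ± 0.40 (adjusted p 0.016), and 0.95, not called, without replicate 1 at 30 days.

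Ccl21, made by lymphatic endothelium and lymph node stroma and bound by Ccr7, gave 7.59, 10.4, 10.7 and 10.1 CPM at 0 days, 11, 7.69, 9.42 and 5.22 at 10 days, 13.2, 18.6, 16.3 and 24.1 at 30 days, and 7.38, 9.31, 33.5 and 39.4 at 60 days. At 60 days 2 libraries were at 0-day levels and 2 (33.5 and 39.4) were above all others, while the 30-day libraries all lay above the 0-day range. In edgeR its log2 fold change was -0.22 ± 0.43 (adjusted p 0.673), 0.90 ± 0.43 (adjusted p 0.0775) and 1.21 ± 0.43 (adjusted p 0.0246), called at 60 days alone, and the 10-day direction flipped with library totals (0.44). The 60-day call was lost without replicate 1 at 0 days (1.13) or replicate 3 (0.95) or 4 (0.80) at 60 days. The 30-day value was called with library totals (1.39), with upper-quartile factors, and without replicate 1 at 60 days (0.89).

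Ccl27, a T-cell chemokine bound by Ccr10, stood at 1.12, 1.54, 1.29 and 1.53 CPM at 0 days, 1.83, 2.04, 1.71 and 2.24 at 10 days, 2.37, 2.11, 3.52 and 2.81 at 30 days, and 2.21, 2.64, 2.81 and 1.78 at 60 days. No operated group overlapped the 0-day group. Log2 fold changes in edgeR were 0.50 ± 0.20 (adjusted p 0.0414), 0.96 ± 0.20 (adjusted p 0.000579) and 0.76 ± 0.21 (adjusted p 0.00498), and the 10-day call was lost without replicate 1 or 3 at 0 days, replicate 1, 2 or 4 at 10 days, or replicate 4 at 30 days (0.43 to 0.53). On GRCr8 its gene overlaps Il11ra1, which was far more abundant (59.8 CPM at 0 days), and the strand setting of the counting is not given in the sources used here, so reads of the pair cannot be told apart.

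Cx3cl1, the membrane-bound ligand of Cx3cr1, gave 4.55, 4.62, 4.24 and 3.88 CPM at 0 days, 7.11, 6.80, 5.90 and 4.79 at 10 days, 6.98, 7.38, 8.68 and 6.71 at 30 days, and 7.88, 5.10, 5.96 and 9.95 at 60 days. All 12 operated libraries were above all 0-day libraries. The rises were small, at log2 0.51 ± 0.18 (adjusted p 0.0239), 0.78 ± 0.18 (adjusted p 0.00143) and 0.75 ± 0.19 (adjusted p 0.00264) in edgeR, and the 10-day call was lost without replicate 4 at 0 days (0.46) or replicate 1 (0.43) or 2 (0.46) at 10 days.

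The Cxcr3 ligands whose promoters are printed above differed among themselves. Cxcl10 stood at 0.450, 0.623, 0.535 and 0.575 CPM at 0 days, 2.81, 1.08, 2.67 and 6.55 at 10 days, 1.77, 2.47, 3.28 and 2.01 at 30 days, and 2.17, 1.29, 1.46 and 3.60 at 60 days. Every operated library exceeded every 0-day library, and replicate 4 at 10 days (6.55) was more than any other. Its log2 fold changes in edgeR were 2.56 ± 0.49 (adjusted p 0.000253), 2.1 ± 0.50 (adjusted p 0.00156) and 1.96 ± 0.51 (adjusted p 0.00365).

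Cxcl9 gave 2.98, 3.48, 3.84 and 3.02 CPM at 0 days, 7.31, 3.38, 5.6 and 7.44 at 10 days, 7.23, 7, 6.60 and 8.16 at 30 days, and 5.99, 7.35, 4.73 and 6.71 at 60 days. Its 30- and 60-day groups lay above the 0-day group, and replicate 2 at 10 days (3.38) lay within it. In edgeR it rose by log2 0.83 ± 0.21 (adjusted p 0.00236), 1.12 ± 0.21 (adjusted p 0.000206) and 0.89 ± 0.21 (adjusted p 0.00189).

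Cxcl11 gave 0.112, 0.623, 0.401 and 0.192 CPM at 0 days, 1.04, 0.164, 0.659 and 1.35 at 10 days, 0.425, 0.665, 0.280 and 0.442 at 30 days, and 0.231, 0.0561, 0.117 and 0.400 at 60 days. All its groups overlapped, and it was the only described gene not called against 0 days at any time, with log2 1.2 ± 0.56 (adjusted p 0.0726), 0.40 ± 0.59 (adjusted p 0.567) and -0.72 ± 0.72 (adjusted p 0.401) in edgeR. The 10-day value was called without replicate 2 at 0 days (1.72) or replicate 2 at 10 days (1.52), and with library totals (1.85). Between 60 and 10 days the log2 difference was -1.91 ± 0.62 (adjusted p 0.014), called lower, and not called without replicate 4 at 10 days (-1.55). Replicate 2 had the lowest 10-day level of Cxcl9, Cxcl10 and Cxcl11. Both Cxcl10 and Cxcl11 overlap Art3 on GRCr8, whose log2 fold change was -1.01 at 10 days. Art3 was far more abundant, averaging 151 to 303 CPM, and without the strand setting its reads cannot be told apart from theirs.

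Cxcl13, which organises B-cell follicles through Cxcr5, stood at 0.225, 0.293, 0.134 and 0.479 CPM at 0 days, 3.57, 2.59, 8.83 and 2.43 at 10 days, 2.80, 4.04, 2.00 and 2.53 at 30 days, and 1.15, 0.953, 2.28 and 3.47 at 60 days. All operated libraries lay above all 0-day libraries, and replicate 3 at 10 days (8.83) was more than any other. Its log2 fold changes were the largest among the ligands described here at each time, 3.92 ± 0.57 (adjusted p 1.92e-05), 3.32 ± 0.58 (adjusted p 0.000126) and 2.79 ± 0.61 (adjusted p 0.00103) in edgeR. The 10-day value was 3.32 without replicate 3 of that time. Between 60 and 10 days the log2 difference was -1.13 ± 0.44 (adjusted p 0.0365), a call lost without replicate 3 at 10 days (-0.54) or replicate 1 (-0.94), 2 (-0.92) or 3 (-1.2) at 60 days.

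Cxcl16, a membrane-bound ligand of Cxcr6 that also takes up oxidised lipoprotein, gave 3.04, 4.07, 4.64 and 3.64 CPM at 0 days, 7.95, 8.61, 11.2 and 9.19 at 10 days, 12.4, 12.6, 11.7 and 12.2 at 30 days, and 10.8, 7.74, 8.42 and 13.0 at 60 days. The 30-day libraries were closely grouped, and no operated library reached down to the 0-day range. Its rise over 0 days was log2 1.25 ± 0.17 (adjusted p 5.51e-06), 1.66 ± 0.17 (adjusted p 3.05e-07) and 1.37 ± 0.17 (adjusted p 4.04e-06) in edgeR, and these 3 calls held in all fits that left out 1 library. On GRCr8 it overlaps Zmynd15, which was also higher (log2 2.48, 2.28 and 1.89) at 0.266 to 1.58 CPM on average. Without the strand setting reads of this pair cannot be told apart either.

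Cxcl12, which retains progenitor cells and leukocytes in tissue through Cxcr4, was lower in the operated groups on the TMM scale. It stood at 198, 205, 203 and 208 CPM at 0 days, 117, 108, 121 and 122 at 10 days, 122, 133, 136 and 137 at 30 days, and 152, 143, 142 and 190 at 60 days. The 0-day libraries lay within a narrow range above all others. Its log2 fold change in edgeR was -0.80 ± 0.08 (adjusted p 4.13e-07) at 10 days, -0.62 ± 0.08 (adjusted p 8.01e-06) at 30 days and -0.38 ± 0.08 (adjusted p 0.0011) at 60 days, but with library totals it was -0.14 and -0.13, not called, and flipped to 0.04 at 60 days. It was higher at 60 than at 10 days by log2 0.42 ± 0.08 (adjusted p 0.000357), and 0.18, not called, with library totals.

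Cxcl14, a chemokine of epithelia and stroma, rose late. It stood at 19.2, 31.8, 31.8 and 19.5 CPM at 0 days, 33.2, 32.8, 27.5 and 22.7 at 10 days, 52.6, 41.7, 55.6 and 45.4 at 30 days, and 60.5, 58.3, 57.6 and 78.7 at 60 days. The 10-day libraries overlapped those of 0 days, and the 30- and 60-day groups were apart from both and from each other. Against 0 days the log2 fold change was 0.18 ± 0.18 (adjusted p 0.396), 0.93 ± 0.18 (adjusted p 0.000316) and 1.31 ± 0.18 (adjusted p 1.72e-05) in edgeR, and with library totals the 10-day value was called too (0.84). It was higher at 30 than at 10 days by 0.75 ± 0.18 (adjusted p 0.00263) and did not pass between 60 and 30 days, at 0.39 ± 0.18 (adjusted p 0.125).

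**Figure D2:**
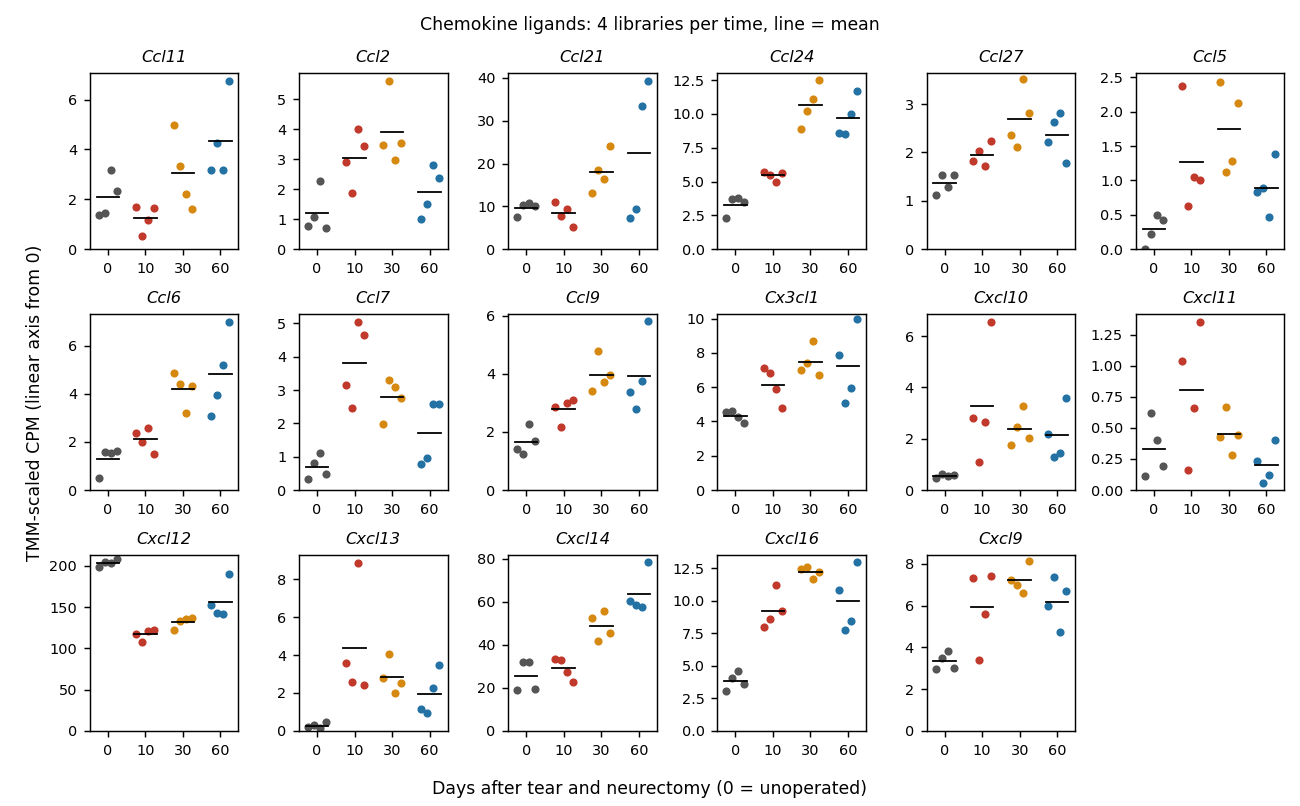
TMM-scaled CPM (linear axes from 0) of the 17 described ligands by days after injury, with a point for each of 4 libraries per time and a line at their mean. Cxcl12 is highest at 0 days, whereas Ccl6, Ccl11, Ccl21 and Cxcl14 have their highest mean at 60 days.

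Among receptors, Ccr1, which binds Ccl5 on monocytes, macrophages and T cells, was higher at all operated times. It gave 0.562, 0.770, 0.714 and 0.527 CPM at 0 days, 1.77, 1.28, 1.78 and 1.26 at 10 days, 1.88, 3.25, 2.32 and 1.61 at 30 days, and 2.44, 1.23, 1.81 and 3.07 at 60 days. All operated libraries lay above all 0-day libraries, and the 3 operated groups overlapped each other. Relative to 0 days the log2 fold change was 1.22 ± 0.31 (adjusted p 0.00231), 1.81 ± 0.30 (adjusted p 6.68e-05) and 1.72 ± 0.31 (adjusted p 0.000174) in edgeR.

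Ccr7, which brings dendritic cells and T cells into lymphatics and lymph nodes, stood at 0.112, 0.0367, 0.134 and 0.0479 CPM at 0 days, 0.957, 1.68, 1.45 and 1.23 at 10 days, 1.06, 1.02, 0.880 and 1.09 at 30 days, and 0.507, 0.168, 0.175 and 0.711 at 60 days. At 0 days it had 7 fragments in all 4 libraries together. The 60-day group lay between, overlapping neither the 0-day nor the earlier operated groups. Its rise over 0 days was log2 3.98 ± 0.46 (adjusted p 1.18e-06), 3.59 ± 0.47 (adjusted p 6.09e-06) and 2.29 ± 0.55 (adjusted p 0.00202) in edgeR. It was lower at 60 days, with log2 differences of -1.69 ± 0.35 (adjusted p 0.000551) from 10 days and -1.30 ± 0.36 (adjusted p 0.016) from 30 days. The 30-to-60-day call was lost without replicate 2 (-1.07) or 3 (-1.08) at 60 days.

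Ccr9, known for homing of T cells to the gut and for thymocytes, had the largest change of the described genes. It stood at 0.0562, 0, 0.0446 and 0 CPM at 0 days, 2.00, 2.37, 1.22 and 2.12 at 10 days, 4.32, 0.593, 1.2 and 1.85 at 30 days, and 0.0922, 0.0561, 0.0584 and 0.178 at 60 days. Over 4 libraries its fragments numbered 2 in the 0-day group and 247, 223 and 8 in the operated groups in order of time. The ratio of scaled counts to 0 days was 85.4 (95% counting interval 23.4 to 709) at 10 days, 81.9 (22.4 to 681) at 30 days and 4.47, with an interval of 0.891 to 43.2, at 60 days. The edgeR adjusted p was 9.71e-06, 1.08e-05 and 0.253, with fitted log2 fold changes that depend on the prior count because of the 2 fragments. The 10- and 30-day groups overlapped neither the 0-day nor the 60-day group.

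Ccr9 fell by 4.23 on the log2 scale from 30 to 60 days (edgeR adjusted p 0.000502). Replicate 1 at 30 days (4.32) was far above the other 3 (0.593 to 1.85), and the fitted value against 0 days was 5.43 without it, while that against 60 days was -3.49, both still called. The direction between 30 and 10 days (0.03) flipped without that library (-0.70) and with library totals (-0.09). In the B-cell marker list, Blnk averaged 0.173 CPM in the 0-day group and 16.9, 7.22 and 0.871 in the operated groups in order of time, with 79 to 552 fragments in the 30-day libraries. The defining B-cell markers Pax5 and Ms4a1 averaged at most 0.166 CPM at any time, and the part of any cell type in the Ccr9 result was not tested. Its ligand Ccl25 had a mean of 0.38 fragments.

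Cxcr3, the receptor of Cxcl9, Cxcl10 and Cxcl11 on activated T and NK cells, stood at 0.0562, 0, 0.178 and 0.0479 CPM at 0 days, 0.667, 0.263, 0.857 and 0.645 at 10 days, 0.673, 0.475, 0.600 and 0.764 at 30 days, and 0.369, 0.393, 0.292 and 0.889 at 60 days. At 0 days it had 6 fragments in total, and all operated libraries lay above that group. Its log2 fold changes were 3.07 ± 0.61 (adjusted p 0.000341), 3.10 ± 0.61 (adjusted p 0.000346) and 2.78 ± 0.66 (adjusted p 0.00173) in edgeR. Replicate 4 at 60 days (0.889) was above the other 3.

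Cxcr6, carried by tissue-resident T and NK cells, peaked sharply at 10 days. It stood at 0.225, 0.0367, 0.0892 and 0 CPM at 0 days, 3.16, 1.54, 2.44 and 2.80 at 10 days, 0.319, 0.285, 0.320 and 0.402 at 30 days, and 0.231, 0.280, 0 and 0.178 at 60 days. The 10-day libraries were above all others, the 30-day libraries lay just above the 0-day range, and the 60-day libraries overlapped it. The log2 fold change was 4.88 ± 0.51 (adjusted p 4.2e-07) at 10 days, 1.97 ± 0.64 (adjusted p 0.0129) at 30 days and 1.09 ± 0.75 (adjusted p 0.223) at 60 days against 0 days in edgeR. From 10 to 30 days it fell by 2.91 on the log2 scale (edgeR adjusted p 1.74e-05), and the fall held in all fits that left out 1 library. It overlaps Fyco1 on GRCr8, whose log2 fold changes were -0.73, -1.41 and -0.79. Fyco1 was far more abundant, averaging 116 to 310 CPM, and without the strand setting reads of the pair cannot be told apart.

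Cxcr4, the signalling receptor of Cxcl12, stood at 4.72, 2.35, 5.09 and 9.67 CPM at 0 days, 10.7, 14.4, 14.2 and 12.1 at 10 days, 8.82, 6.60, 7.20 and 8.48 at 30 days, and 6.09, 10.4, 8.88 and 9.15 at 60 days. The 10-day libraries lay above all others, and replicate 4 at 0 days (9.67) exceeded every 30-day library. In edgeR the log2 fold change was 1.24 ± 0.29 (adjusted p 0.00133) at 10 days, called, and 0.52 ± 0.29 (adjusted p 0.128) and 0.67 ± 0.29 (adjusted p 0.061) at 30 and 60 days, not called. Without replicate 4 at 0 days the latter were 0.96 and 1.12 and were called, as were 1.02 and 1.08 with library totals, and 0.80 at 60 days without replicate 1 of that time. Between 30 and 10 days the log2 difference was -0.73 ± 0.28 (adjusted p 0.0414). This call was lost in 9 of 16 fits that left out 1 library (-0.79 to -0.65). It held without replicate 1, 2 or 4 at 0 days, replicate 1 at 10 days, or replicate 1, 2 or 4 at 60 days.

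Cxcr5, the Cxcl13 receptor of B cells and follicular helper T cells, stood at 0.675, 0.477, 0.446 and 0.239 CPM at 0 days, 0.203, 0.164, 0.395 and 0.184 at 10 days, 0.602, 0.451, 0.360 and 0.362 at 30 days, and 0.830, 0.729, 0.994 and 0.444 at 60 days. Replicate 3 at 10 days was above the other 3, and the groups overlapped except 10 and 60 days. In edgeR its log2 fold change was -0.94 ± 0.39 (adjusted p 0.0444) at 10 days, a call lost with library totals (-0.29) and in 10 of 16 fits that left out 1 library (-0.94 to -0.72). It held without replicate 4 at 0 days, replicate 3 at 10 days, replicate 1 or 4 at 30 days, or replicate 3 or 4 at 60 days. At 30 days it was -0.03, a direction that flipped with library totals (0.47), upper-quartile factors (0.10) and limma-voom (0.01), and at 60 days 0.70 ± 0.35 (adjusted p 0.1), called without replicate 4 at that time (0.92). It was higher at 60 than at 10 days by 1.64 ± 0.37 (adjusted p 0.00107). It overlaps Bcl9l on GRCr8, which was lower at each time (log2 -0.57, -1.06 and -0.91). Bcl9l was far more abundant, averaging 32.1 to 66.9 CPM, and without the strand setting reads of the pair cannot be told apart.

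The atypical receptor Cxcr7, which binds Cxcl12 and removes it, stood at 48.6, 51.5, 49.7 and 46.8 CPM at 0 days, 23.0, 17.6, 20.8 and 14.5 at 10 days, 20.3, 27.7, 28.3 and 27.7 at 30 days, and 36.7, 53.2, 47.4 and 49.6 at 60 days. The 10- and 30-day libraries lay below all 0-day libraries, and the 60-day group overlapped the 0-day group. In edgeR the log2 fold change was -1.37 ± 0.14 (adjusted p 3.37e-07) and -0.92 ± 0.14 (adjusted p 2.78e-05) at 10 and 30 days, and both were called with library totals too (-0.71 and -0.43). At 60 days the value of -0.07 ± 0.14 (adjusted p 0.659) was not called, and it flipped to 0.34, called higher, with library totals, and to 0.07 with upper-quartile factors. It was higher at 60 days by 1.30 ± 0.14 (adjusted p 9.87e-07) against 10 days and 0.84 ± 0.14 (adjusted p 0.0006) against 30 days. Replicate 1 at 30 days (20.3) was below the other 3, and without it the 30-day value against 0 days was -0.82.

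**Figure D3:**
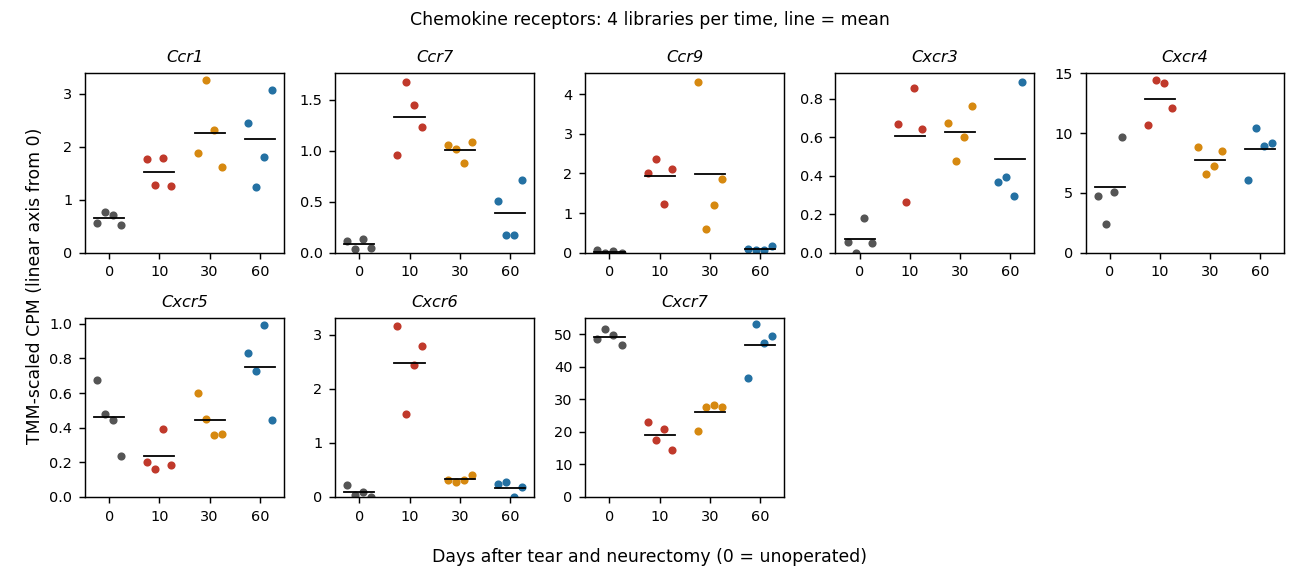
TMM-scaled CPM (linear axes from 0) of 8 of the described receptors by days after injury, with a point for each of 4 libraries per time and a line at their mean. Ccr9 and Cxcr6 lie close to 0 at 0 and 60 days, and Cxcr7 is lowest at 10 days.

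Set side by side, receptors and their ligands did not follow the same course in every pair. Cxcr6 was at 2.49 ± 0.694 CPM (SD, n = 4) at 10 days and 0.331 ± 0.0498 at 30 days, while its ligand Cxcl16 was at 9.23 ± 1.39 and 12.2 ± 0.386. Ccr7 had its highest mean at 10 days (1.33 ± 0.307) and was at 0.390 ± 0.266 at 60 days, while Ccl21 was at 8.33 ± 2.47 and 22.4 ± 16.4. Cxcl13 had its highest mean at 10 days, when Cxcr5 had its lowest (0.237 ± 0.107 against 0.459 ± 0.178 CPM at 0 days). Cxcl12 and Cxcr7 were both lowest at 10 days, when Cxcr4 was highest. Cxcr3 stayed between 0.486 ± 0.272 and 0.628 ± 0.122 CPM at the operated times, and its ligands Cxcl9 and Cxcl10 were called higher than at 0 days at each of them. No test compares a ligand with a receptor, and levels on this scale cannot be set against each other between genes.

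**Figure D4:**
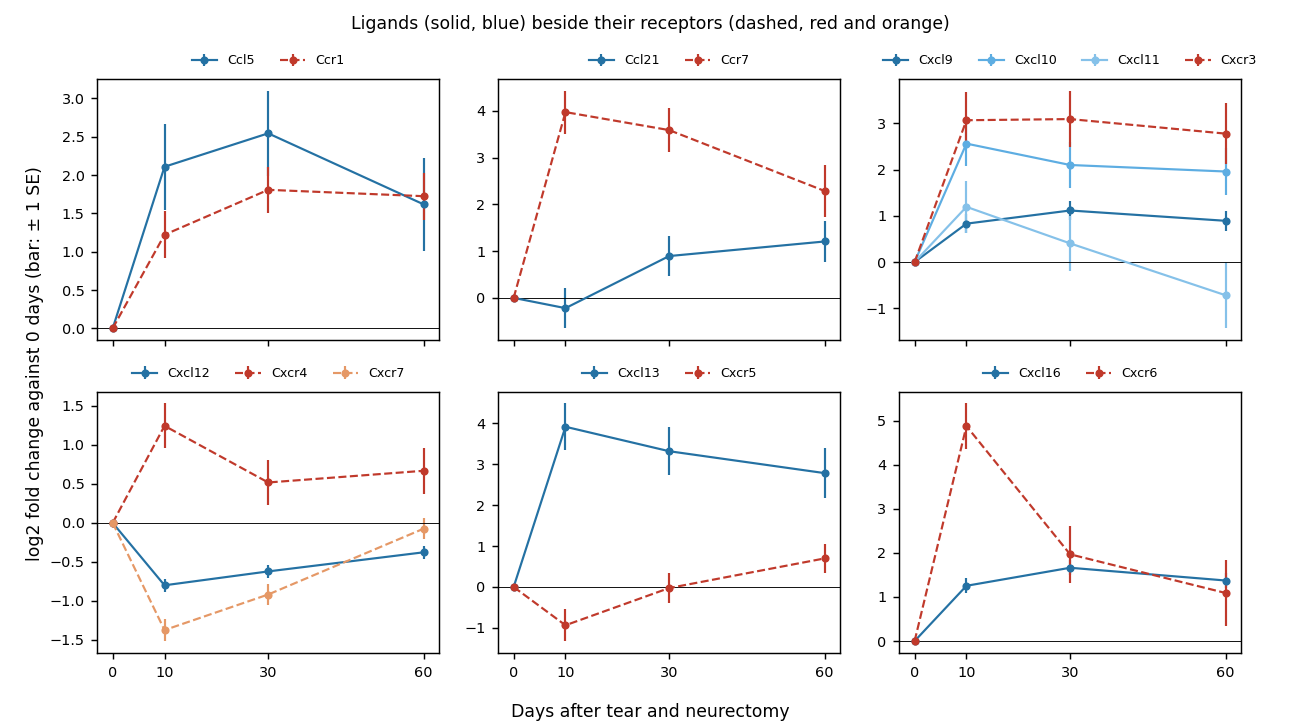
Log2 fold change against 0 days (edgeR, TMM-scaled, bars of 1 standard error) of ligands (solid lines) and their receptors (dashed lines) by days after injury, in 6 panels. Cxcr6 stands at 4.88 at 10 days and 1.97 at 30 days beside 1.25 and 1.66 for Cxcl16, and Ccr7 goes from 3.98 to 2.29 between 10 and 60 days beside -0.22 and 1.21 for Ccl21, whose 10-day direction flips with library totals.

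Between the operated times fewer of these genes differed. At 30 against 10 days 7 were higher and 2 lower, or 9 of 26, against 47.3% of all genes tested (23.0% and 24.3%). The groups did not overlap for 9, against 43.8%. The count called was 13 without replicate 4 at 60 days and 6 without replicate 1 at 30 days. Upper-quartile factors gave 11 higher and 1 lower, and library totals 4 and 2. The higher genes were Ccl6, Ccl11, Ccl21, Ccl24, Cxcl14, Cxcl16 and Cxcr7, and the lower ones Cxcr4 and Cxcr6. The Ccl21 and Cxcl16 calls were each lost in 7 of 16 fits that left out 1 library, with lowest values of 0.94 and 0.34. For Ccl21 these left out replicate 2 at 0 days, 2, 3 or 4 at 10 days, or 2, 3 or 4 at 30 days, and for Cxcl16 replicate 1, 2 or 4 at 10 days or any replicate at 30 days.

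At 60 against 30 days 2 were higher (Cxcl12 and Cxcr7) and 3 lower (Ccl2, Ccr7 and Ccr9), or 5 of 26, against 22.6% of all tested (10.3% and 12.4%), and the groups did not overlap for 7, against 20.1%. With library totals or limma-voom the split was 1 and 3, and the Cxcl12 call was lost without replicate 1, 3 or 4 at 10 days, any replicate at 30 days, or replicate 4 at 60 days (0.16 to 0.26). The count was 3 without replicate 1, 3 or 4 at 10 days, replicate 1, 2 or 4 at 30 days, or replicate 2 or 4 at 60 days. At 60 against 10 days 8 were higher and 7 lower, or 15 of 26, against 61.1% of all tested (29.1% and 31.9%), with no overlap of the groups for 11, against 51.2%. Upper-quartile factors gave 9 and 5. The higher genes were Ccl6, Ccl11, Ccl21, Ccl24, Cxcl12, Cxcl14, Cxcr5 and Cxcr7, and the lower ones included Ccl7, Ccr7, Ccr9, Cxcl11, Cxcl13 and Cxcr6.

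By course against 0 days, 14 genes were higher at all 3 times, among them Ccl5, Ccl7, Ccl9, Ccl24, Ccl27, Cx3cl1, Cxcl9, Cxcl10, Cxcl13, Cxcl16, Ccr1, Ccr7 and Cxcr3. Ccl2, Ccr9 and Cxcr6 were higher at 10 and 30 days, Cxcr4 at 10 days, Ccl6 and Cxcl14 at 30 and 60 days, and Ccl11 and Ccl21 at 60 days. The highest group mean fell at 10 days for 8 genes, at 30 days for 11, at 60 days for 5 and at 0 days for 2. Taken singly, 33.3%, 33.7% and 29.9% of all tested genes were higher at 10, 30 and 60 days. The share of all tested genes with each course or peak was not counted, so these counts only describe the list. In the joint edgeR test of the 4 groups all 26 were called, against 84.7% of all tested, and 25 were without replicate 1 at 30 days.

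The 24 other genes had means of 0.06 to 9.12 fragments. Ccl3, Ccl12, Cxcl1, Cxcl17 and Cx3cr1 passed the filter for low counts, and 19 did not. Those 19 were the ligands Ccl1, Ccl4, Ccl17, Ccl19, Ccl20, Ccl22, Ccl25, Ccl26, Ccl28, Cxcl2, Cxcl3 and Cxcl5 and the receptors Ccr1l1, Ccr3, Ccr4, Ccr6, Ccr10, Cxcr1 and Cxcr2. The neutrophil-attracting ligands and their receptors were thus all at or under a mean of 8.75 fragments, and among the neutrophil markers Elane, Camp and Fpr1 had at most 4 fragments in any library. The 9 neutrophil markers together summed to 1.15 to 1.52 CPM in the 0-day group and to 3.83 to 9.2, 3.36 to 9.0 and 1.98 to 4.31 CPM in the operated groups in order of time. Most of the sum at 10 days was S100a8, with a mean of 5.0 CPM against 0.0626 in unoperated muscle. From 0 to 10 days the mean of S100a9 went from 0.641 to 0.508 CPM and that of Mpo from 0.219 to 0.0478. Csf3r went from 0.407 to 0.743 CPM, and the remaining markers averaged at most 0.0478 CPM at either time. The part of neutrophils was not tested. At this depth a change in these 24 genes is poorly measured and is not described. Ccr2, the main receptor of Ccl2 and Ccl7, is not analysed here.

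Other genes of the chemokine system and of its known inducers and signalling were taken from 3 lists. Of 8 tested atypical receptors, other chemokines and binders, 2 were higher and 1 lower at 10 days (3 and 0 with library totals), 5 and 0 at 30 days (5 and 1 with RLE factors) and 7 and 0 at 60 days. Of all genes tested, 62.7%, 64.6% and 59.0% were called at these times. The list's median log2 fold change was 0.07, 0.95 and 1.09, against 0.06, 0.05 and 0.04 over all genes. Xcr1, a receptor of cross-presenting dendritic cells, averaged 0.0977 ± 0.0787 CPM (SD, n = 4) in unoperated muscle, then 0.576 ± 0.0859, 0.629 ± 0.216 and 0.402 ± 0.165 over time, with log2 2.45, 2.60 and 1.97. The platelet chemokine Pf4 was higher at 30 and 60 days (0.97 and 1.21), as was Cklf (1.26 and 1.14), and Cmtm3 at all 3 times (0.64, 1.13 and 1.18). The scavenger Ackr2 was lower at 10 days (-1.16) and higher at 60 days (0.69), with -0.69, not called, at 30 days.

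Of 24 tested genes listed as inducers of chemokine transcription or their regulators, 16 were higher and 1 lower at 10 days, 15 and 3 at 30 days and 16 and 3 at 60 days. With library totals the split was 20 and 0 at 30 days and 20 and 1 at 60 days. In all, 17, 18 and 19 of the 24 were called, beside the same background of 62.7%, 64.6% and 59.0%. Their medians were 0.75, 0.60 and 0.53. The list also holds the NF-kB inhibitors Nfkbia and Nfkbib, so these counts are not of inducers alone. Nfkbia was the 1 gene lower at 10 days (log2 -0.84) and was among the higher ones at 60 days (0.72). Nfkbib was among the lower ones at 30 and 60 days (-0.55 and -0.40). The cytokine Il1b was higher at all 3 times (log2 1.88, 1.84 and 1.39), as were Tgfb1 (1.08, 1.72 and 1.05), the myeloid factor Irf8 (1.83, 2.02 and 0.80) and the pattern receptor Tlr2 (1.96, 1.95 and 1.29). Il6, at a mean of only 6.88 fragments a library and so poorly measured, was higher at 10 and 60 days (2.19 and 1.51), with 1.25, not called, at 30 days.

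Of 27 tested genes of signalling downstream of the receptors, 17 were higher and 2 lower at 10 days, 16 and 4 at 30 days (23 and 2 with library totals) and 19 and 3 at 60 days, with medians of 0.50, 0.88 and 0.70. The called totals of 19, 20 and 22 stand against 62.7%, 64.6% and 59.0% of all genes tested. Higher at all 3 times were Rgs1, which dampens Gi signals (3.5, 4.19 and 4.51), the phosphoinositide 3-kinase subunit Pik3r5 (2.32, 2.04 and 1.83) and the exchange factor Vav1 (2.59, 2.50 and 1.77). So were the kinase Fgr (2.29, 2.49 and 1.34) and Itgal, a chain of the leukocyte integrin LFA-1 (3.46, 1.92 and 1.46).

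Macrophage and monocyte markers were mostly higher at the operated times, while other lists varied. Of all genes tested, 33.3%, 33.7% and 29.9% were higher and 29.4%, 30.9% and 29.1% lower at 10, 30 and 60 days against 0 days. Of 13 tested macrophage and monocyte markers, 11 were higher at 10 days and 13 at 30 and 60 days, none lower. Their summed level was 49.7 to 81.1 CPM in the 0-day group and 147 to 193, 216 to 256 and 180 to 313 in the operated groups in order of time. Of 8 tested T-cell markers 7, 8 and 4 were higher at the 3 times (8, 8 and 7 with library totals), none lower. Their sums were 5.00 to 7.58, 17.2 to 23.5, 19.7 to 23.2 and 10.5 to 23.8 CPM in order of time, and Cd8b had no fragment in the 0-day libraries. Of 5 B-cell markers only Blnk was abundant enough to test, and Pax5 had no fragment in the 0-day libraries. Endothelial markers summed to 369 to 421 CPM at 0 days and 202 to 301 at 10 days. At 10 days 8 of 8 were lower on the TMM scale, as were Cxcl12 and Cxcr7, but 1 of 8 with library totals (median log2 -0.58 and 0.08). On the TMM scale 3 were lower at 30 days, and 1 was lower and 1 higher at 60 days (326 to 503 CPM), while Cxcl12 stayed lower. With library totals 3 and 7 were higher at 30 and 60 days, none lower. Of 9 muscle fibre markers 8, 7 and 6 were lower at the 3 times on the TMM scale, and 1, 1 and 2 higher. Fibro-adipogenic progenitor markers summed to 596 to 1010 CPM at 0 days, 1350 to 1630 at 30 days and 1790 to 3040 at 60 days. Of 7, 2 were higher and 2 lower at 10 days (5 and 0 with library totals). At 30 and at 60 days 6 were higher, beside the late rise of Cxcl14 and Ccl11. Of 6 Schwann-cell markers 1 was higher and 2 lower at 10 days (3 and 1 with library totals), and 3 and 6 were higher at 30 and 60 days. Adipocyte markers were higher only at 60 days (5 of 6). At 10 and at 30 days 1 was lower and none higher, and with library totals none was lower at 30 days. Of 4 tested NK-cell markers 4, 4 and 3 were higher at the 3 times, of 3 neutrophil markers 2, 1 and 2 and of 5 mast-cell markers 0, 2 and 4, with none lower. With library totals the neutrophil counts were 2, 3 and 3 and the mast-cell counts 1, 4 and 5. Of 5 dendritic-cell markers 2, 4 and 2 were higher, and Zbtb46 was lower at 10 and 30 days (5.55 CPM at 0 days, then 3.93 and 3.36). None of the 5 was lower at 10 days with upper-quartile factors, or at 10 or 30 days with library totals. Counts from lists this short say little beside the shares of all tested genes. The part of these cell types in the results was not tested.

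**Figure D5:**
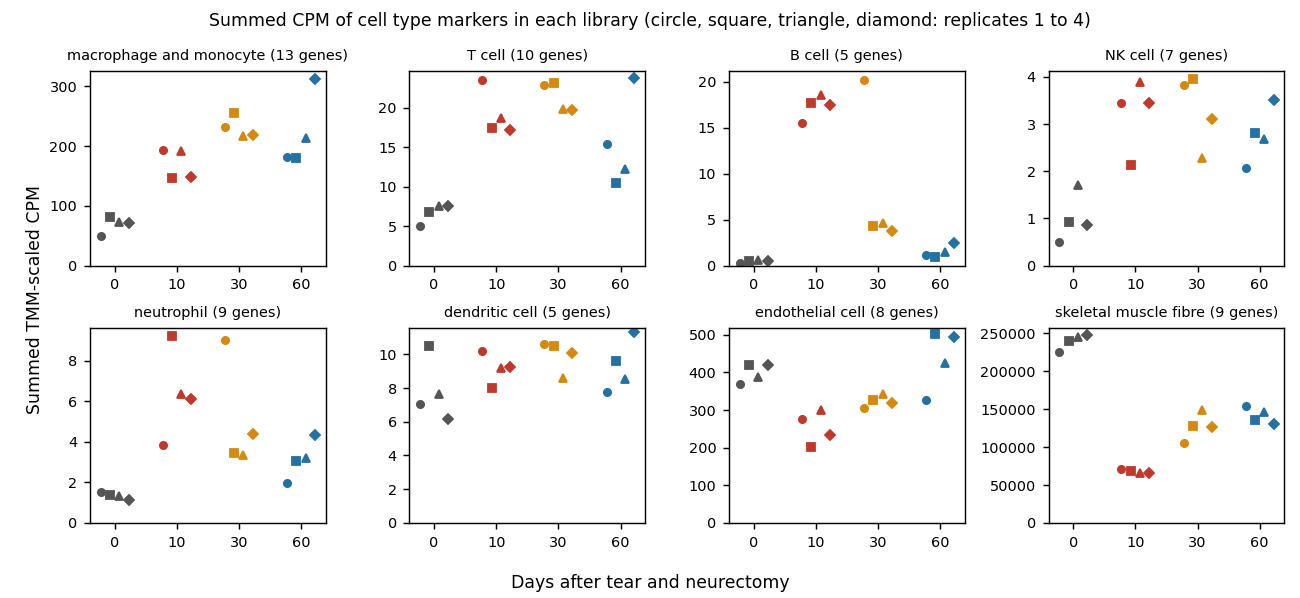
Summed TMM-scaled CPM (linear axes from 0) of 8 cell type marker lists in each library by days after injury, with a symbol for each replicate. Macrophage and T-cell sums lie above the 0-day range at all operated times, and replicate 4 at 60 days has the highest macrophage sum (313).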

How the data were processed

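Per the labels' protocols, a miRNeasy kit gave the RNA and a TruSeq mRNA kit the libraries. The submitters' processing notes name bcl2fastq 1.8.4, FastQC, TopHat2 2.0.9, Bowtie2 2.1.0.0, Cufflinks, Cuffdiff 2.1.1 and the rn5 build, without their roles, and the strand setting of the counting is not given in the sources used here. The deposited values are expected counts of fragments per gene, of which 233 genes, none a chemokine gene, hold a value that is not whole. These were rounded.

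Counts were fitted with edgeR 4.0.16 in R 4.3.3, using TMM factors, 1 model of all 4 groups (common biological coefficient of variation 0.15) and the quasi-likelihood test, with Benjamini-Hochberg adjustment over the 11658 genes that passed edgeR's filter for low counts. Of the 17147 genes, 5489 were not tested, and 2637 of them had no fragment. The call threshold was an adjusted p of 0.05. Every ± beside a log2 fold change is its standard error, and every adjusted p in the text is from edgeR. Alternatives used RLE and upper-quartile factors, library totals, DESeq2 1.42.0, limma-voom (limma 3.58.1), no filter, 2 groups alone, a threshold of 0.01, a replicate block, the letter in the library titles as a covariate, each library left out and, added after seeing the data, thinned counts. On simulated counts for 10 against 0 days over 11514 genes, 164 of 200 genes changed 2-fold were called, with 6 unchanged genes called. The simulation of 60 against 30 days held no changed gene and gave 0 calls. Changed genes were both raised and lowered and all others held equal, whereas 62.7% of tested genes were called in the data at 10 days. The simulation thus does not probe the choice of scaling.

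The chemokine genes, the other gene lists and the marker lists were chosen with earlier results of these data known. The genes named with values are the described ones, apart from an item that is not reported here by name and stays in the counts, and from each pathway list the 5 with the largest absolute log2 fold change among those called against 0 days. Other genes are named as overlapping neighbours, cell type markers or NF-kB inhibitors of a pathway list. The scaling check of the marker lists was added after seeing the data. Promoters are from the RefSeq table of GRCr8, used for sequences and gene overlaps only, which held 48 of the 50 symbols and lists Cxcr7 as Ackr3. Figures were drawn with matplotlib 3.10.9.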

Additional observations from a re-analysis of the deposited data

Results flagged for a closer look

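Of 100 groups of 4 libraries (25 genes at 4 times), 5 held a library far from its group by Dixon's ratio, where chance gives about 1 in 20 groups. Ccl6 was low in replicate 1 at 0 days (0.506 CPM, others 1.52 to 1.63), Cxcr7 was low in replicate 1 at 30 days (20.3, others 27.7 to 28.3) and Cxcr5 was high in replicate 3 at 10 days (0.395, others 0.164 to 0.203). In replicate 4 at 60 days Cxcl14 (78.7, others 57.6 to 60.5) and Cxcr3 (0.889, others 0.292 to 0.393) were high.

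The operated times differed for 28 of the 75 gene comparisons between them (edgeR, adjusted p under 0.05), given as log2 differences of the later time from the earlier. Between 30 and 10 days these were Ccl11 1.28, Ccl21 1.11, Ccl6 1.00, Ccl24 0.96, Cxcl14 0.75, Cxcr7 0.46, Cxcl16 0.41, Cxcr4 -0.73 and Cxcr6 -2.91. Between 60 and 30 days they were Cxcr7 0.84, Cxcl12 0.25, Ccl2 -1.04, Ccr7 -1.30 and Ccr9 -4.23.

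Between 60 and 10 days the higher genes were Ccl11 1.79, Cxcr5 1.63, Ccl21 1.43, Cxcr7 1.30, Ccl6 1.19, Cxcl14 1.14, Ccl24 0.83 and Cxcl12 0.42. The lower ones were Ccr9 -4.20, Cxcr6 -3.79, Cxcl11 -1.91, Ccr7 -1.69, Ccl7 -1.15 and Cxcl13 -1.13.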

How the results depend on the processing

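Of 90 called differences of single genes, 65 kept their call and direction under all 27 alternatives. With library totals the direction turned for Ccl21 at 10 days (0.44), Cxcr5 at 30 days (0.47) and Cxcl12 (0.037) and Cxcr7 (0.34) at 60 days against 0 days, for Ccr9 (-0.094) and Cxcr3 (-0.14) between 30 and 10 days, and for Cx3cl1 (-0.004), Cxcl16 (-0.13) and Cxcl9 (-0.19) between 60 and 10 days. With upper-quartile factors it turned for Cxcr5 at 30 days (0.099), Cxcr7 at 60 days (0.071) and Ccl9 between 60 and 30 days (0.015). RLE factors and DESeq2 gave 0.012 for that last value, and thinned counts 0.077. Limma-voom turned Cxcr5 at 30 days (0.009), Ccr9 between 30 and 10 days (-0.38) and Ccl21 between 60 and 30 days (-0.02). The title letter as a covariate turned Cxcr5 at 30 days (0.10), Cxcr3 between 30 and 10 days (-0.13), and Ccl9 (0.10), Ccr1 (0.047), Cx3cl1 (0.068) and Cxcl10 (0.007) between 60 and 30 days. The cause was not tested. The count of called genes became 4 between 30 and 10 days at a threshold of 0.01, and between 60 and 30 days 2 at that threshold, 2 with these groups alone, 3 with no filter and 3 to 5 with a library left out. Leaving out a library gave -0.10 to 0.61 for Ccl21, -0.036 to 0.36 for Ccl6, -0.25 to 0.12 for Ccl9, -0.30 to 0.16 for Ccr1, -0.22 to 0.10 for Cx3cl1 and -0.51 to 0.042 for Cxcl10 between 60 and 30 days. It gave -0.70 to 0.36 for Ccr9, -0.75 to 0.12 for Cxcl10 and -0.22 to 0.23 for Cxcr3 between 30 and 10 days, and -0.77 to 0.012 for Ccl5, -0.017 to 0.22 for Cxcl16 and -0.13 to 0.19 for Cxcl9 between 60 and 10 days. Against 0 days it gave -0.22 to 0.19 for Cxcr5 at 30 days and -0.14 to 0.024 for Cxcr7 at 60 days. The cause of these changes was not tested. Same-numbered libraries did not deviate together (mean r 0.00129 over 24 pairs, 4 of them over 0.1), and a replicate block gave 20, 21 and 18 called genes at 10, 30 and 60 days against 0 days, 10 between 30 and 10 days, 5 between 60 and 30 days and 13 between 60 and 10 days, and turned Ccr9 between 30 and 10 days (-0.21). Genes with few fragments, such as Ccr9, Cxcr3 and Cxcl11, are limited by depth. Ccr9 and Cxcr3 had the fewest at 0 days (2 and 6 in the group), and Cxcl11 at 60 days (17).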
